A study of Mus musculus with 8 samples.

Results

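The genes described here encode the machinery that presents peptides on major histocompatibility complex (MHC) class II molecules in the mouse: Cd74, H2-Aa, H2-Ab1, H2-Eb1, H2-DMa, H2-DMb2, H2-Oa, H2-Ob and Ciita. They were taken by name, and the array annotation gave 8 of these 9 genes 12 probe sets of their own among 22626 probe sets without controls. A further 3 probe sets are annotated to a member together with another gene: 2 to H2-DMb2 and H2-DMb1, and 1 to H2-Ob and Gm20506, so that H2-Ob has no probe set of its own. RNA from flow-sorted lymph node cells was hybridised to Affymetrix arrays, 1 sample per array, in 3 groups of B10.BR mice, an inbred strain: naive mice (3 arrays), mice 7 days after immunization (3 arrays) and mice 28 days after immunization (2 arrays). What was injected, which cells were sorted and how old the mice were is not given in the labels. Nor is it stated that replicates came from different mice, so the p-values reflect only the scatter among arrays, which may be technical. With 2 or 3 arrays per group, the number of arrays limits the precision.

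MHC class II molecules are pairs of an alpha and a beta chain that carry peptides from endosomes to the cell surface, where CD4 T cells read them. In lymph nodes they are known above all on B cells, dendritic cells and macrophages. New class II pairs are held by the invariant chain, encoded by Cd74; proteases trim that chain to a short fragment in the groove, the exchange factor H2-DM replaces the fragment with peptide, and H2-O restrains H2-DM. Ciita encodes the class II transactivator, which binds no DNA itself and is recruited by RFX, CREB and NF-Y proteins sitting on a row of short promoter elements, among them the X box, bound by RFX, and the Y box, bound by NF-Y.

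Promoter stretches that hold the letters of these boxes are shown first, since the boxes are the known point of joint control of the genes whose values follow. RefSeq promoter windows (GRCm38.p6, 250 bases before to 50 bases after a start) were used for 6 of the 9 genes. H2-Ab1 and Ciita had none here. The search for member windows left out the chromosome that carries Cd74, so any window of Cd74 was dropped and not read. The windows come from C57BL/6J, whose class II haplotype differs from the k haplotype of B10.BR, so the mice studied may differ at single bases. GCAAC, a core of the X box, and GATTGG, the Y box, were searched on both strands. In the stretches below each is in capitals, 5′ to 3′ on the strand of the gene.
H2-Aa: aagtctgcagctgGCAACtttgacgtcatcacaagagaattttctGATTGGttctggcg
H2-Eb1: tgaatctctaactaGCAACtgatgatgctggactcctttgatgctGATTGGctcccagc
H2-Oa: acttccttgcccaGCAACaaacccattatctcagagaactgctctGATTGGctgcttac
H2-Ob: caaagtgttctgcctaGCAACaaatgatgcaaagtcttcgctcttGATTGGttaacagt
H2-DMb2: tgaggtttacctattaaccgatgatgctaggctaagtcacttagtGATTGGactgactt
These stretches lie at chr17:34287859-34287917 on the minus strand for H2-Aa, and on the plus strand at chr17:34305762-34305820 for H2-Eb1, chr17:34092290-34092348 for H2-Oa, chr17:34238802-34238860 for H2-Ob and chr17:34145113-34145171 for H2-DMb2. The motifs stand 27 bases apart in H2-Aa and H2-Oa, 26 in H2-Eb1 and 24 in H2-Ob. The H2-DMb2 stretch has GATTGG, 91 bases before the start, but its window does not hold the exact letters GCAAC on either strand. Variants of the X box core were not searched for, so whether H2-DMb2 has an X box was not tested. The 2 windows of H2-DMa hold no such pair. Over all 32851 windows, GCAAC was found in 35.2%, GATTGG in 16.1%, and GCAAC followed on the same strand, 15 to 40 bases on, by GATTGG in 0.435%. The spacing was set after these windows had been read, so that share describes the windows and tests nothing.

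The deposited values are ratios, taken here as log2. As the values show, each probe set was scaled to its middle value on the 8 arrays, or, if dim, to what may be a shared floor, so levels of different genes cannot be compared and changes of dim genes may be understated. A probe set was tested if its ratio was at least 1 on at least 2 arrays, which kept 13042 probe sets, and was called when limma's Benjamini-Hochberg adjusted p over all of them was under 0.05. Of the 12 member probe sets, 10 were tested, and all 3 shared ones. H2-DMa passed this filter only through its 2 day 28 arrays, so it had to differ in order to be tested. Outside day 28, 1452431_s_at of H2-Aa reached a ratio of 1 only on day 7 replicate 1, so it too needed a day 28 array to be tested. Neither adds support to the counts over members. The arrays also fell into 2 sets by the hybridisation spike-ins, bacterial and bacteriophage transcripts added before hybridisation. The median log2 ratio of these spike-ins came to -1.70 to -1.03 for the day 7 arrays and -1.16 for naive replicate 1 (the low set), and to 0.64 to 1.41 for the day 28 arrays and 0.66 to 0.85 for naive replicates 2 and 3 (the high set). The first principal component of all tested probe sets, 43.7% of the variance, divided the arrays in the same way, with -71.7 to -44.5 for the low set and 35.2 to 85.4 for the high set. Day 28 and day 7 arrays therefore share no set, and their difference cannot be told apart from this split except through the naive arrays.

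At day 28 the invariant chain and the class II chains were far above their naive values. Of the 10 tested probe sets, 6 rose, 0 fell and 4 did not pass, and those that rose belong to Cd74, H2-Aa (both its probe sets), H2-Ab1, H2-Eb1 and H2-Oa. The 6 include 1452431_s_at of H2-Aa, which needed a day 28 array to be tested. Over all tested probe sets, 0.322% were called in this comparison and 0.268% were higher. The median log2 difference was 3.86 for the 10 member probe sets and -0.05 for all tested probe sets. In 9 of the 10, both day 28 arrays lay above every naive array, which held for 7.76% of all tested probe sets, and in 0 of the 10 both lay below, as in 9.88%. In bulk RNA such as this, a change in the number of cells that express a gene and a change in RNA per cell cannot be told apart.

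Cd74 had the largest difference of the tested member probe sets. Its log2 ratio was -0.72, -2.58 and -1.67 on naive arrays, 0.56, 0.30 and -0.38 on day 7 arrays, and 5.67 and 6.23 on day 28 arrays. The groups did not overlap, and day 7 lay between the others on every array. Against naive arrays, Cd74 rose 195-fold at day 28, a log2 difference of 7.61 ± 0.57 (SE here and throughout, 2 arrays against 3), with an adjusted p from limma of 0.00428.

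The alpha and beta chains of the I-A molecule come from H2-Aa and H2-Ab1. For H2-Aa, probe set 1452431_s_at had log2 ratios of -0.37, -1.12 and -1.12 on naive arrays, 1.17, -1.08 and -0.41 on day 7 arrays, and 6.64 and 5.83 on day 28 arrays. Day 28 stood apart on both arrays, whereas naive and day 7 arrays overlapped. It rose by 7.10 ± 0.66 on the log2 scale at day 28 against naive (adjusted p = 0.00936). The other probe set, 1435290_x_at, a design that can also bind similar transcripts, had 0.32, -1.96 and -1.99 on naive arrays, -0.08, 0.08 and -0.18 on day 7 arrays, and 4.62 and 3.95 on day 28 arrays. Here naive replicate 1 lay above all day 7 arrays and the other naive arrays well below them. Its rise at day 28 was 5.49 ± 0.69 (adjusted p = 0.0247).

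H2-Ab1 was measured by 3 probe sets, which agreed in direction at day 28 and differed in size. Probe set 1450648_s_at had log2 ratios of 0.44, -1.02 and -0.36 on naive arrays, 0.01, -0.27 and -0.01 on day 7 arrays, and 4.65 and 3.70 on day 28 arrays, and rose by 4.49 ± 0.49 at day 28 against naive (adjusted p = 0.0149). Probe set 1451721_a_at had 3.94 and 2.28 at day 28, against -0.13, 0.00 and 0.58 in naive arrays, a log2 difference of 2.96 ± 0.50 that did not pass (adjusted p = 0.0899). Probe set 1425477_x_at had 2.40 and 1.10 at day 28, against 0.04, -0.04 and 0.18 in naive arrays, a difference of 1.69 ± 0.40 that did not pass (adjusted p = 0.289). In all 3 probe sets both day 28 arrays lay above every naive array. In a fit of gene means, the mean of the 3 differed by 3.05 and passed (adjusted p = 0.0249).

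H2-Eb1 encodes the beta chain of the I-E molecule. Its log2 ratio was -0.49, -1.31 and -1.28 on naive arrays, 0.47, -1.0 and 0.37 on day 7 arrays, and 6.08 and 4.77 on day 28 arrays. Both day 28 arrays lay far above the rest, and at day 7 replicate 2 lay among the naive arrays. H2-Eb1 rose 87.6-fold at day 28 against naive (6.45 ± 0.59, adjusted p = 0.00936).

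**Figure D1:**
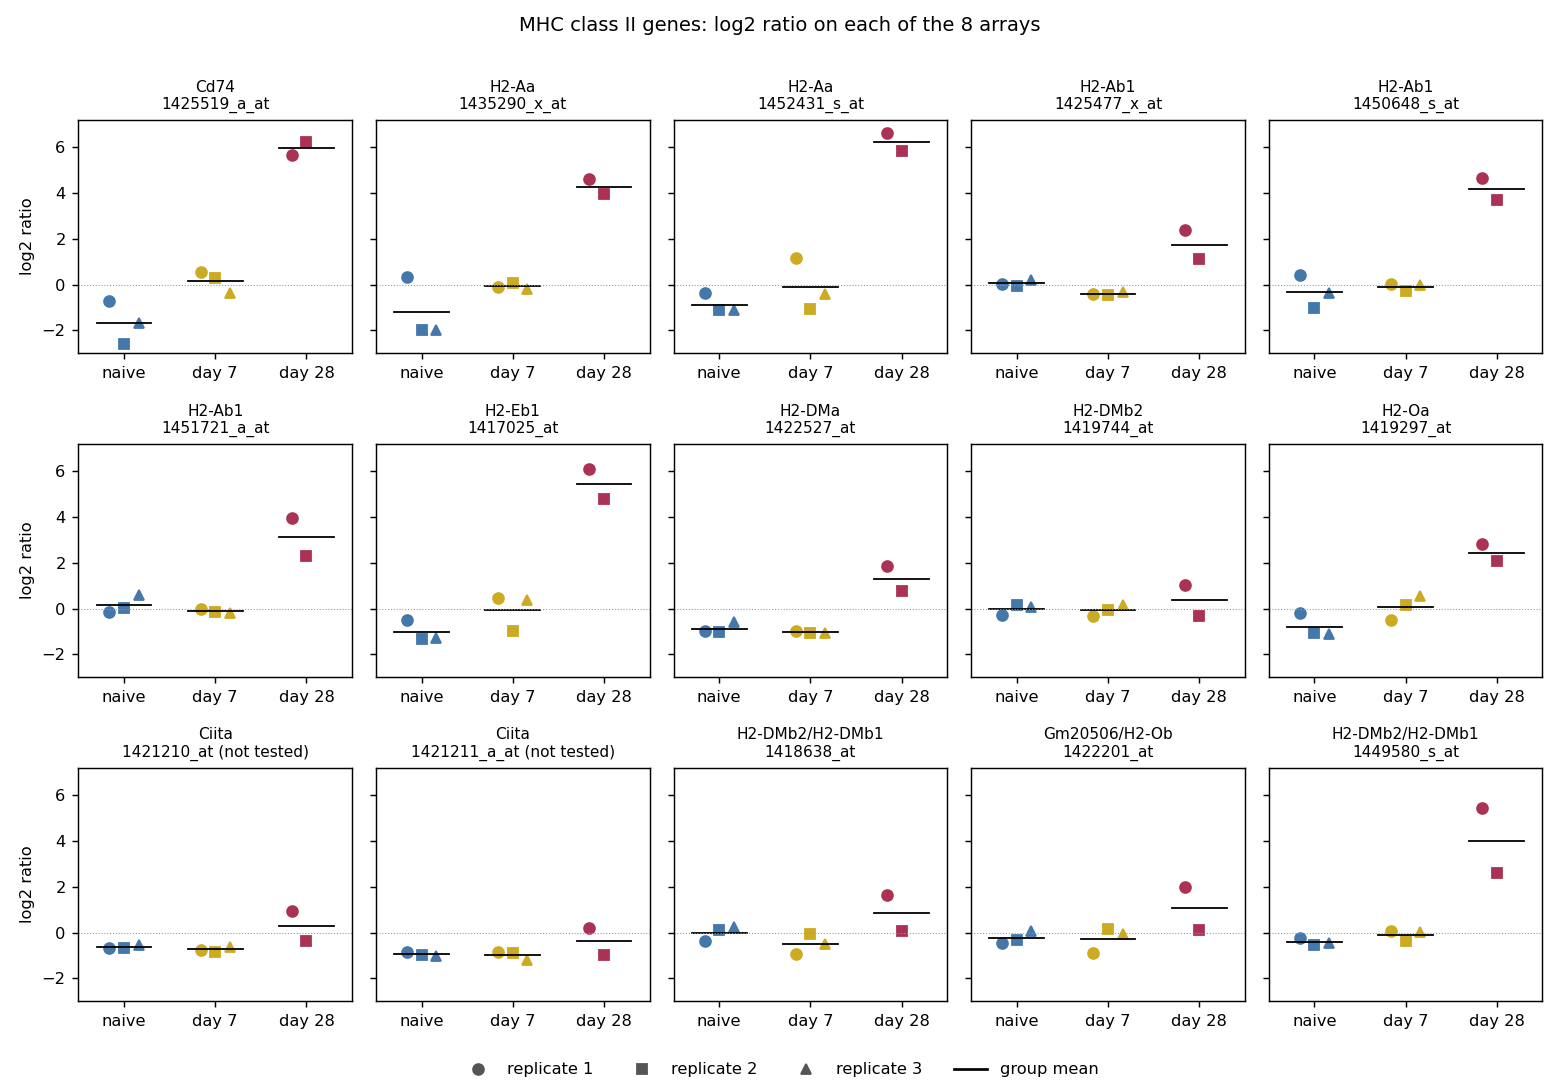
Each panel shows 1 probe set of a class II gene, with the log2 ratio (vertical axis) on each array by group (horizontal axis); marker shapes give the replicate number and black lines the group means. The day 28 arrays of Cd74, H2-Aa and H2-Eb1 sit between 3.95 and 6.64, above all naive and day 7 arrays, whereas the dim probe sets of Ciita stay between -1.18 and 0.93.

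Neither unshared probe set of the peptide exchange factor passed at day 28 against naive. H2-DMa, its alpha chain, had log2 ratios of -0.98, -1.04 and -0.61 on naive arrays, -0.97, -1.08 and -1.05 on day 7 arrays, and 1.84 and 0.75 on day 28 arrays. Both day 28 arrays stood above the others, but the difference from naive, 2.17 ± 0.38, did not pass (adjusted p = 0.107). H2-DMb2, a beta chain, had 1.04 and -0.31 at day 28, against -0.30, 0.14 and 0.05 in naive arrays. Its day 28 arrays lay on both sides of the naive ones, and its difference was 0.41 ± 0.44 (95% interval -0.60 to 1.41, adjusted p = 0.998).

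The 2 probe sets that H2-DMb2 shares with the closely related H2-DMb1 disagreed. Probe set 1449580_s_at had 5.44 and 2.59 at day 28, against -0.23, -0.53 and -0.46 in naive arrays (difference 4.42 ± 0.72, adjusted p = 0.0819). Probe set 1418638_at had 1.65 and 0.07 at day 28, against -0.39, 0.11 and 0.26 in naive arrays (0.87 ± 0.52, adjusted p = 0.943). On 1449580_s_at the day 28 arrays stood clear of the naive ones but 2.85 log2 units from each other, the widest gap between the day 28 arrays among the 15 probe sets. Which of the 2 genes gave the signal of a shared probe set was not tested.

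H2-Oa and H2-Ob encode H2-O, the inhibitor of the exchange factor. H2-Oa had log2 ratios of -0.19, -1.06 and -1.12 on naive arrays, -0.50, 0.16 and 0.56 on day 7 arrays, and 2.83 and 2.07 on day 28 arrays. It rose 9.44-fold at day 28 against naive (3.24 ± 0.47, adjusted p = 0.0462), close to the threshold. The probe set shared by H2-Ob and Gm20506 had 2.0 and 0.12 at day 28, against -0.47, -0.34 and 0.08 in naive arrays. Replicate 1 stood clear of the naive arrays and replicate 2 only just above the highest of them, and the difference of 1.31 ± 0.58 did not pass (adjusted p = 0.818).

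Ciita, the transactivator, was too dim on both its probe sets to be tested. Probe set 1421210_at had 0.93 and -0.36 at day 28, against -0.67, -0.66 and -0.54 in naive arrays. Probe set 1421211_a_at had 0.20 and -0.96 at day 28, against -0.85, -0.97 and -1.01 in naive arrays. Day 28 replicate 1 was the highest array in both, and replicate 2 was close to the naive arrays. With no filter, their log2 differences were 0.91 ± 0.35 (limma adjusted p = 0.938) and 0.56 ± 0.33 (adjusted p = 0.984). On 1421210_at both day 28 arrays lay above every naive and every day 7 array, and limma's unadjusted p was 0.0398 against naive and 0.0258 against day 7 (1.02 ± 0.35, adjusted p = 0.332). No rise of Ciita passed after adjustment, and ratios near the floor may understate a change.

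**Figure D2:**
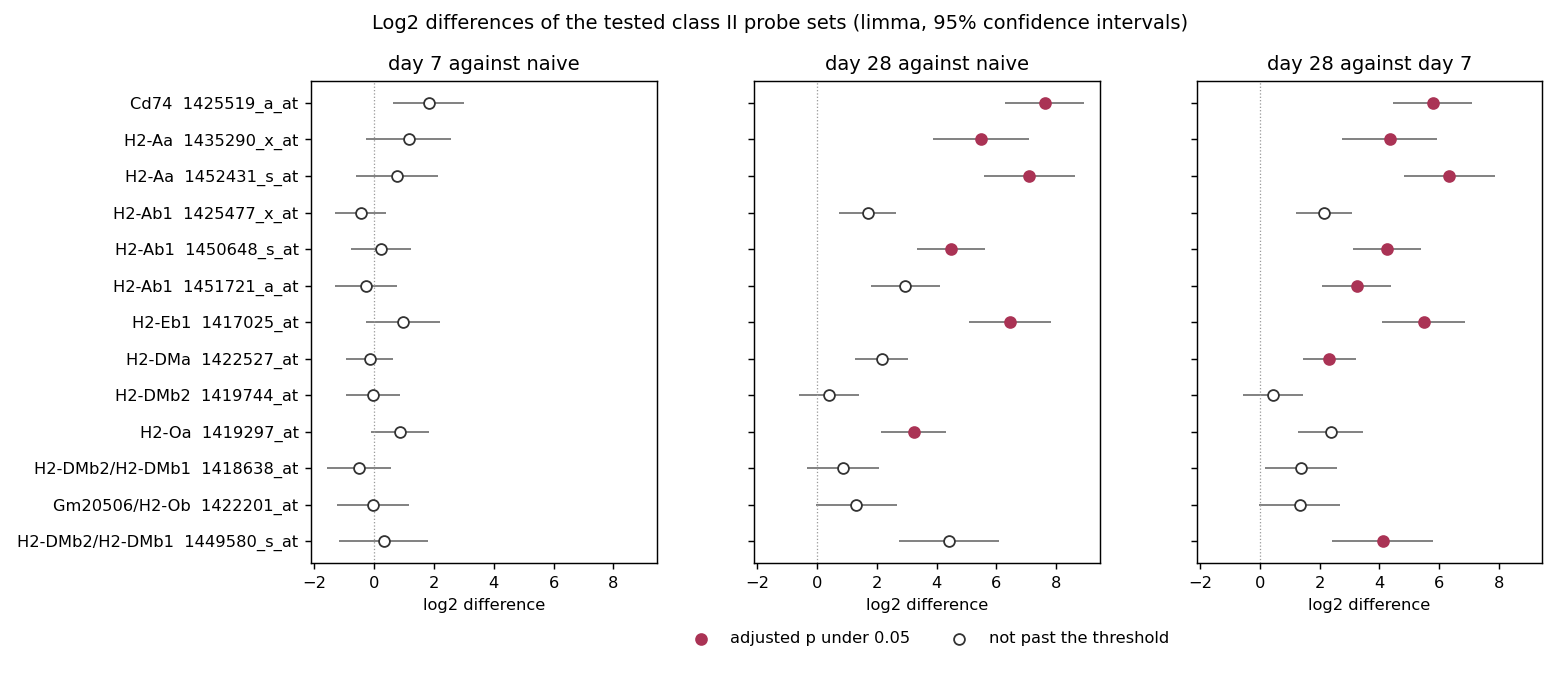
Points give the log2 difference (horizontal axis) of each tested class II probe set, with its 95% confidence interval from limma, in 3 comparisons; filled points have an adjusted p under 0.05. At day 7 against naive 0 of the 10 unshared probe sets pass, at day 28 6 pass against naive and 7 against day 7.

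These calls rest on few arrays. Without day 28 replicate 1, 0 of the 10 passed in limma, 9 having an unadjusted p under 0.05 (adjusted p = 0.0522 for Cd74, 0.0612 for H2-Eb1), although Cd74 then differed by 7.89 and H2-Eb1 by 5.80; the lone day 28 array is here assumed to vary like the other groups. The number was 1 without naive replicate 3, 3 without day 7 replicate 3, and 0 (9 at an unadjusted p under 0.05) when only the naive and day 28 arrays were fitted. Of the 8 fits that each left out an array, the call was kept in 7 for Cd74, 6 each for H2-Eb1 and 1452431_s_at of H2-Aa, 5 for 1450648_s_at of H2-Ab1, and 1 each for 1435290_x_at of H2-Aa and H2-Oa. The lowest differences with any array left out were 7.15 for Cd74, 5.80 for H2-Eb1, 6.70 and 5.10 for the H2-Aa probe sets, 4.01 for 1450648_s_at of H2-Ab1 and 2.86 for H2-Oa. Within the high spike-in set, day 28 minus naive replicates 2 and 3 was 8.08 for Cd74, 6.72 for H2-Eb1, 7.35 and 6.26 for H2-Aa, 4.86 for 1450648_s_at and 3.54 for H2-Oa, each larger than over all arrays. On the tested member probe sets that were not called it was smaller than over all arrays. These had 1.68 (1425477_x_at) and 2.82 (1451721_a_at) for H2-Ab1, 2.12 for H2-DMa and 0.27 for H2-DMb2. With the spike-in set as a covariate, 6 of the 10 passed.

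The day 28 arrays differed from each other in a regular way. Replicate 1 lay above replicate 2 on 9 of the 10 tested member probe sets and on all 3 shared ones, against 51.5% of all tested probe sets. On those 9 the gap ran from 0.67 for 1435290_x_at of H2-Aa to 1.65 for 1451721_a_at of H2-Ab1, and on the shared ones from 1.58 to 2.85. Cd74 was the exception, 0.56 lower on replicate 1. On the same arrays, replicate 1 lay above replicate 2 on 14 of 19 tested B cell marker probe sets, 5 of 8 of monocytes and macrophages, 4 of 16 of T cells and 0 of 4 of dendritic cells. The median log2 ratio on replicates 1 and 2 was 3.26 and 2.62 for the B cell list, 0.29 and 0.13 for the monocyte and macrophage list, -0.44 and 0.14 for the T cell list and -0.30 and 0.14 for the dendritic cell list; their part in the gap was not tested.

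At day 7 the question is whether class II genes had begun to differ 1 week after immunization. None of the 10 tested member probe sets passed against naive (0 called; 1 at an unadjusted p under 0.05, Cd74), where 1.17% of all tested probe sets were called. Cd74 had the largest difference, 1.82 ± 0.51 (95% interval 0.64 to 3.0, adjusted p = 0.161), and all 3 of its day 7 arrays lay above all naive arrays, as did 13.4% of all tested probe sets. H2-Aa differed by 1.15 ± 0.62 (1435290_x_at) and 0.76 ± 0.59 (1452431_s_at), H2-Eb1 by 0.97 ± 0.53 and H2-Oa by 0.86 ± 0.42, and none of these passed (adjusted p between 0.369 and 0.542). The H2-Ab1 probe sets ran from -0.46 to 0.22, H2-DMa differed by -0.16 and H2-DMb2 by -0.04. On 1425477_x_at of H2-Ab1 all day 7 arrays lay below all naive arrays, as did 8.61% of all tested probe sets.

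The day 7 mean lay above the naive mean and below the day 28 mean on 6 of the 10 tested probe sets, those of Cd74, H2-Aa (both), H2-Eb1, H2-Oa and 1450648_s_at of H2-Ab1. This order held for 10.2% of all tested probe sets. How far day 7 lay above naive depended on which naive arrays were used. Against naive replicate 1 alone, the order was lost on 1435290_x_at of H2-Aa and 1450648_s_at of H2-Ab1. In 6 of the 10, naive replicate 1 was the highest naive array, against 46.4% of all tested probe sets. Naive replicate 1 exceeded the mean of the other naive arrays by 2.30 on 1435290_x_at of H2-Aa, 1.40 for Cd74, 1.13 on 1450648_s_at of H2-Ab1 and 0.90 for H2-Oa. Without that array, Cd74 differed by 2.29 (adjusted p = 0.0202) and 1435290_x_at by 1.91 (adjusted p = 0.0132) at day 7, and both passed. Within the low spike-in set, where naive replicate 1 is the naive array, day 7 minus naive was 0.89 for Cd74, 0.44 for H2-Eb1, 0.26 for H2-Oa and for 1452431_s_at of H2-Aa, -0.39 for 1435290_x_at and -0.53 for 1450648_s_at. With 1 naive array on that side these differences have no test, and only for Cd74 did all 3 day 7 arrays lie above naive replicate 1.

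Day 28 also stood above day 7. Of the 10 tested probe sets, 7 rose at day 28 against day 7, 0 fell and 3 did not pass, against 1.3% of all tested probe sets called and 0.422% higher. The 7 include H2-DMa and 1452431_s_at of H2-Aa, which needed day 28 arrays to be tested. In 9 of the 10, both day 28 arrays lay above every day 7 array, as in 15.2% of all tested probe sets, and in 0 of the 10 both lay below, as in 29.7%. Cd74 rose by 5.79 ± 0.57 (adjusted p = 0.00639), H2-Aa by 6.34 ± 0.66 and 4.34 ± 0.69 (adjusted p = 0.00801 and 0.0348) and H2-Eb1 by 5.48 ± 0.59 (adjusted p = 0.00929). H2-Ab1 rose by 4.26 ± 0.49 on 1450648_s_at and 3.24 ± 0.50 on 1451721_a_at (adjusted p = 0.0110 and 0.0318).

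H2-DMa passed here, with 1.84 and 0.75 at day 28 against -0.97, -1.08 and -1.05 at day 7 (2.33 ± 0.38, adjusted p = 0.0379). The probe set 1449580_s_at, shared by H2-DMb2 and H2-DMb1, also rose (4.11 ± 0.72, adjusted p = 0.0447). H2-Oa (2.38 ± 0.47, adjusted p = 0.0607), 1425477_x_at of H2-Ab1 (2.15 ± 0.40, adjusted p = 0.0542) and H2-DMb2 (0.45 ± 0.44, adjusted p = 0.648) did not pass. The comparison shares its day 28 arrays with that against naive, so the lists of called genes are not independent. With the spike-in set as a covariate, 0 of the 10 passed in limma (9 at an unadjusted p under 0.05, adjusted p = 0.0668 for Cd74), with differences of 7.19 for Cd74 and 6.28 for H2-Eb1. The number was also 0 (9 at an unadjusted p under 0.05) without day 28 replicate 1, 2 without day 7 replicate 3 and 4 without naive replicate 2, day 7 replicate 1 or day 7 replicate 2.

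Other genes of class II presentation were taken from a list of 38, of which 33 had 60 probe sets of their own and 31 had 46 tested ones. At day 28 against naive, 4 of the 46 rose, 0 fell and 42 did not pass, with a median log2 difference of 0.51 against -0.05 for all tested probe sets. The 4 belonged to Irf8, Ctsh, Cd83 and Cd40. At day 28 against day 7, 3 of the 46 rose, those of Irf8, Ctsh and Cd40, and 0 fell. At day 7 against naive 1 rose, that of Cd83, and 0 fell. The share called at day 28 was 8.70% against naive, where it was 0.322% of all tested probe sets, and 6.52% against day 7, where it was 1.3%. At day 7 against naive it was 2.17%, near the 1.17% of all tested probe sets.

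Cd83 encodes a surface protein that keeps class II on the cell surface by opposing its ubiquitination. Its log2 ratio was -3.49, -2.27 and -2.34 on naive arrays, 0.29, -0.36 and 0.61 on day 7 arrays, and 1.64 and 1.33 on day 28 arrays. The 3 groups did not overlap. Cd83 rose by 2.87 ± 0.43 at day 7 (adjusted p = 0.0301) and by 4.18 ± 0.48 at day 28 (adjusted p = 0.0161), each against naive, and the step between day 7 and day 28 did not pass (1.31 ± 0.48). Unlike in Cd74 and H2-Aa, naive replicate 1 was the lowest naive array.

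Irf8, a transcription factor of B cells and myeloid cells, had 3.51 and 2.55 at day 28, against -0.72, -0.63 and -1.05 in naive arrays, on probe set 1416714_at (3.83 ± 0.37, adjusted p = 0.00954). Outside day 28, 1416714_at reached a ratio of 1 only on day 7 replicate 1. It thus needed a day 28 array to be tested and adds no support to the counts over this list. The other Irf8 probe set, 1448452_at, had 0.70 and 0.01 at day 28, against -0.66, -0.53 and -0.09 in naive arrays, and did not pass. Ctsh, the lysosomal protease cathepsin H, had 4.71 and 3.45 at day 28, against -0.61, 0.76 and -1.23 in naive arrays (4.44 ± 0.64, adjusted p = 0.0462). Cd40, the receptor through which T cells stimulate antigen-presenting cells, had 2.58 and 2.24 at day 28, against -0.34, -0.18 and 0.43 in naive arrays (2.44 ± 0.35, adjusted p = 0.0435). In each of these, 1448452_at of Irf8 included, both day 28 arrays lay above every naive array. The day 28 calls named next are those against naive, in the 8 fits that each left out an array. That of Cd40 was lost in each of the 8, of Ctsh in 7, of Cd83 in 5 and of Irf8 in 2. The lowest differences in these fits were still 2.27 for Cd40, 3.80 for Ctsh, 3.79 for Cd83 and 3.35 for Irf8. The day 7 call of Cd83 was lost in 7 of the 8, with differences of 2.48 to 3.14.

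Few probe sets of the remaining roles passed. Of 14 tested probe sets of processing enzymes, 1 rose at day 28 against naive, that of Ctsh. Ifi30, the reductase that opens disulphide bonds in the endosome, had 2.09 and 1.15 at day 28, against -0.84, 0.00 and -1.44 in naive arrays, and did not pass (2.38 ± 0.48, adjusted p = 0.18). Ctsl, the protease cathepsin L, had 3.33, 0.83 and 2.32 at day 7, against -0.42, -0.44 and -1.02 in naive arrays (2.79 ± 0.61, adjusted p = 0.0913). At day 28 it had 0.33 and -0.42, a difference from day 7 of -2.21 ± 0.68 (adjusted p = 0.173), and neither difference passed. Ctsb, the protease cathepsin B, had -1.04 and 0.02 at day 28 on 1417490_at, against 2.36, 1.05 and 1.19 at day 7 (-2.04 ± 0.49, adjusted p = 0.101). Ctsd, the protease cathepsin D, had -0.31, -1.13 and -1.09 at day 7, against 0.11, 1.77 and 0.62 in naive arrays (-1.67 ± 0.47, adjusted p = 0.16). On 1417490_at of Ctsb and for Ctsd, the groups compared did not overlap, and the difference did not pass. On other probe sets of Ctsb, day 28 differed from day 7 by -1.86 ± 0.67 (1417491_at) and -0.18 ± 0.66 (1417492_at). Neither passed, and on 1417492_at the groups overlapped.

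Of 13 tested probe sets of genes that induce Ciita, among them the interferon gamma receptor and its kinases, 1 rose at day 28 against naive, that of Irf8. None of the differences that follow passed. Ifngr2, a chain of the receptor, differed by -1.91 ± 1.20 at day 28 against naive on 1423557_at, where naive replicate 2 had 3.96 and every other array 0.10 or less. On its other probe set, 1423558_at, it had 0.23 and 0.91 at day 28, against 0.13, 0.04 and -0.04 in naive arrays (0.52 ± 0.31). Jak1, a kinase of the receptor, differed by -2.20, 1.81 and 1.5 at day 28 against day 7 on its 3 probe sets, 1433804_at, 1433803_at and 1433805_at. Jak2, the partner kinase, differed by 1.68 and 1.42 at day 7 against naive, and Ifngr1, the other receptor chain, by 1.37 ± 0.49 at day 28 against naive.

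Of 9 tested probe sets of the RFX, NF-Y and CREB factors, 0 passed in limma in any comparison (1 at an unadjusted p under 0.05 at day 28 against naive). That was Nfyb, a subunit of NF-Y, which had 0.10 and 2.43 at day 28 on 1419267_at, against 0.21, -3.21 and -1.6 in naive arrays (2.80 ± 1.01, adjusted p = 0.641). Naive replicate 1 lay above a day 28 array there. H2-Ea, the I-E alpha chain gene, named for its role, was called on none of its 3 probe sets. On 1422892_s_at, which like H2-DMa was tested only through its day 28 arrays, it had 0.09 and 1.48 at day 28, against -0.08, -0.51 and -0.55 in naive arrays (1.17 ± 0.43, adjusted p = 0.688). In the same comparison H2-Ea differed by 0.61 ± 0.38 on 1422891_at and by -0.23 ± 0.45 on 1426202_at. Outside day 28, 1426202_at reached a ratio of 1 only on naive replicate 3, so it too needed a day 28 array to be tested.

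**Figure D3:**
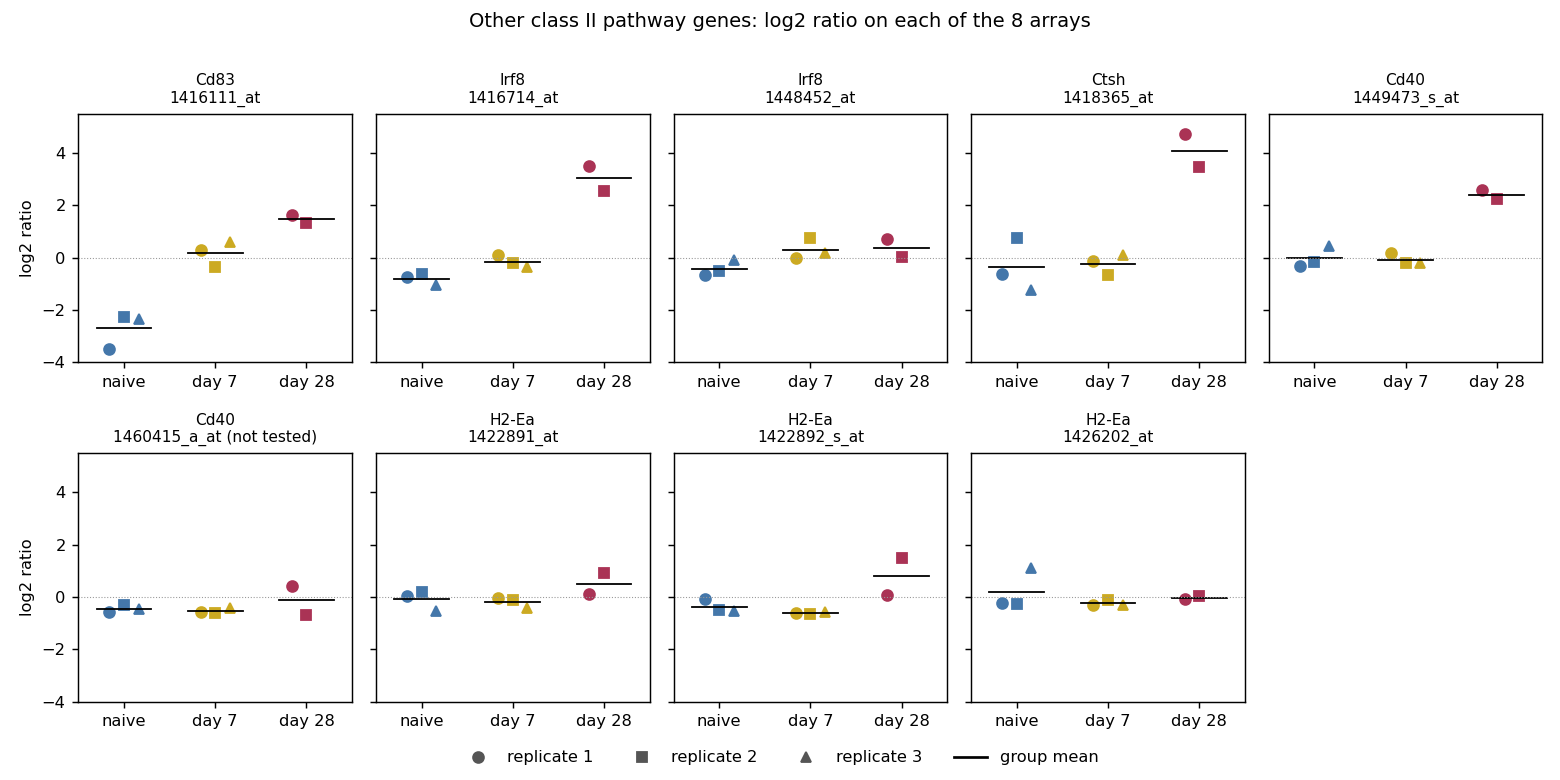
Panels show the log2 ratio (vertical axis) on each array by group for all probe sets of Cd83, Irf8, Ctsh, Cd40 and H2-Ea; shapes give the replicate number and black lines the group means. Cd83 lies at -2.27 or lower on all naive arrays and at -0.36 or higher on all others, while Irf8 (1416714_at), Ctsh and Cd40 (1449473_s_at) are high on the day 28 arrays only.

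Markers of the cell types known for class II were set beside these values. The B cell list had 19 tested probe sets, of which 8 rose at day 28 against naive, 0 fell and 11 did not pass, with a median log2 difference of 2.82. Over all tested probe sets, 0.268% were higher in this comparison and the median was -0.05. Its median log2 ratio per array lay between -0.20 and -0.11 on the 6 naive and day 7 arrays, and was 3.26 and 2.62 on the day 28 arrays. Those that rose were Cd79b, which signals within the B cell receptor (6.09 ± 0.43, adjusted p = 0.00428), Ms4a1, which encodes CD20 (6.74 ± 0.64), Ly6d, Cd22, Fcer2a, Cr2, Blnk and Spib. Ms4a1 has another tested probe set, 1450912_at, which differed by 1.88 ± 0.42 against naive and did not pass in limma (adjusted p = 0.228). The smallest difference from naive among the 19 was 0.17, that of Ebf1 on 1416302_at. At day 28 against day 7, 11 of the 19 rose, where 0.422% of all tested probe sets were higher. Blnk and Blk were tested only through their day 28 arrays; without them 7 of 17 rose against naive and 9 of 17 against day 7. Fcer2a is still in these counts. Outside day 28 it reached a ratio of 1 only on naive replicate 1, so it too needed a day 28 array to be tested. Of the 8 fits that each left out an array, the call against naive was kept in 8 for Blnk, 7 for Cd79b, 6 for Ms4a1, 3 for Cd22, 2 each for Ly6d, Fcer2a and Cr2, and 0 for Spib. The B cell list thus moved with the class II genes at day 28; its part in their rise was not tested. At day 7 against naive, 0 of the 19 passed in limma (1 at an unadjusted p under 0.05), with a median of -0.06.

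No marker of the other presenting cells passed at day 28 against naive. Of 16 monocyte and macrophage probe sets only 8 were bright enough to be tested. Of these 8, 0 passed at day 28 against naive in limma (2 at an unadjusted p under 0.05, median 0.59). On 5 of the 8, both day 28 arrays lay above every naive array, against 7.76% of all tested probe sets. The 5 belong to Lyz2, Mpeg1 and Csf1r (3 probe sets). The part of these cells in the class II rise was not tested. Lyz2 had the largest difference (4.23 ± 0.84, adjusted p = 0.163), with 5.43 and 2.19 at day 28 against -0.49, -0.16 and -0.61 in naive arrays. Mpeg1, a pore-forming protein of macrophages, had 1.75 and 0.19 at day 28, against -0.22, -1.08 and -1.38 in naive arrays (1.86 ± 0.53, adjusted p = 0.464). Csf1r, the receptor of the macrophage growth factor CSF1, differed by 0.39 to 1.85 on its 3 probe sets. C1qb, also on this list, went the other way, by -0.34 on 1434366_x_at and -0.09 on 1437726_x_at. On 1434366_x_at both day 28 arrays lay below every naive array, as in 9.88% of all tested probe sets. Adgre1, which encodes a macrophage surface antigen, differed by 0.64 ± 0.40. Of 16 dendritic cell probe sets only 4 were bright enough to be tested, and 0 passed (0 at an unadjusted p under 0.05, median -0.04). Flt3, a growth factor receptor of dendritic cell precursors, differed by -0.08 ± 0.30. Itgax, which encodes CD11c, and all 3 probe sets of Zbtb46, a factor of classical dendritic cells, were not tested. Of 16 tested T cell probe sets, 0 passed at day 28 against naive (0 at an unadjusted p under 0.05, median -0.27). Cd3e, a chain of the T cell receptor complex, had -2.43 and 2.68 at day 28, against 0.10, 1.18 and -0.40 in naive arrays. Cd4 had -2.43 and 0.42 at day 28 on 1419696_at, against 0.21, 1.31 and -2.32 in naive arrays, and 0.61 and -0.02 on 1427779_a_at, against -0.73, 0.29 and 0.64. These probe sets varied widely within groups, and the order of the day 28 arrays differed between the 2 of Cd4.

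**Figure D4:**
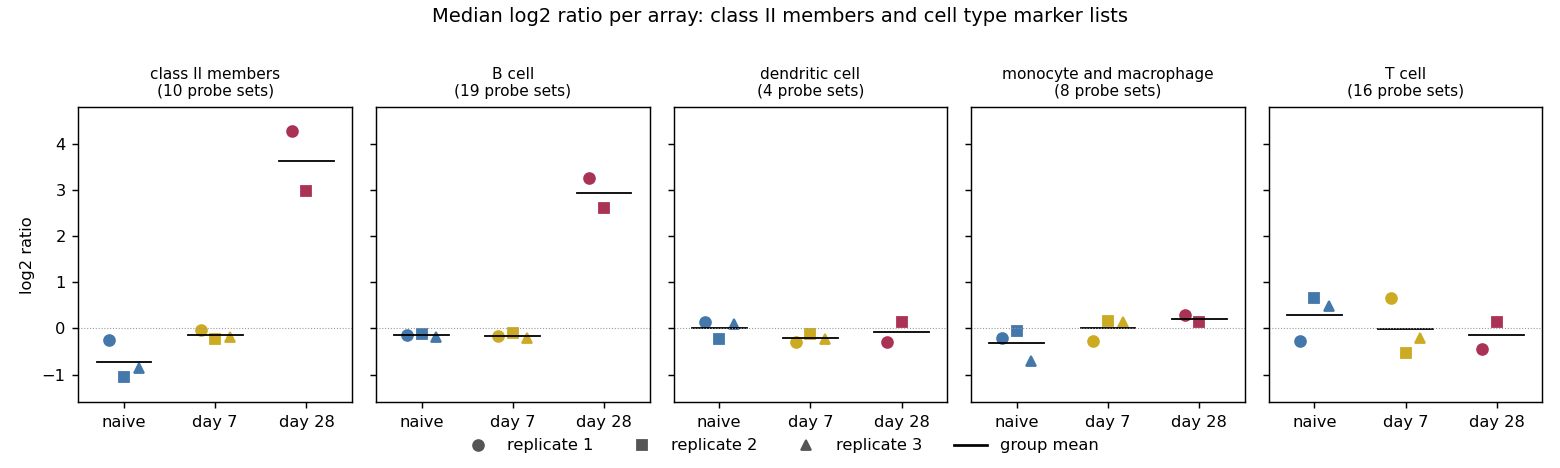
Each panel shows the median log2 ratio (vertical axis) per array over the tested probe sets of a list, by group, with shapes for the replicate number and lines for the group means. The class II members reach 4.28 and 2.99 and the B cell list 3.26 and 2.62 on the day 28 arrays, whereas the other lists stay between -0.71 and 0.67 on every array.

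The genes most like the class II chains were found by the mean absolute difference in log2 ratio, over the 8 arrays, from the mean profile of the 7 probe sets of Cd74, H2-Aa, H2-Ab1 and H2-Eb1. That profile was -0.13, -1.15 and -0.81 on naive arrays, 0.25, -0.37 and -0.17 on day 7 arrays, and 4.86 and 3.98 on day 28 arrays. The closest 8 genes were Fcer2a (0.39), Syk (0.41), Ly6d (0.45), Mef2c (0.46), Ighv14-2 (0.47), Swap70 (0.47), Cd24a (0.48) and Cd8b1 (0.50), where the median of all tested probe sets was 1.61. The chains themselves lay 0.27 to 1.06 from their own mean. Fcer2a encodes CD23, a receptor of B cells, Syk a kinase that signals from the B cell receptor, and Ighv14-2 is an immunoglobulin heavy chain segment. Cd8b1 encodes the beta chain of CD8 and belongs to T cells; it had 4.07 and 3.10 at day 28, against -0.13, -0.06 and -0.14 in naive arrays. Cd8b1 was tested only through its day 28 arrays. Outside day 28, Syk and Fcer2a reached a ratio of 1 only on naive replicate 1, so both needed a day 28 array to be tested. The 8 genes were chosen for their pattern, which is a description with no test.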

How the data were processed

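The deposited table holds 22690 probe sets (64 controls) on 8 arrays, with 0 missing values. The deposited values are linear ratios; per the submitters' processing notes GCRMA was used, and the scaling is not stated. As 47.9% of probe sets had a median ratio of 1 and none had a higher one, each was read as scaled to its own middle value or to a floor. The array annotation gave 1 symbol to 20380 probe sets, several to 691 and none to 1555; gene identifiers were updated through RefSeq.

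Log2 ratios of 13042 probe sets (2 or more arrays with a ratio of 1 or above) were fitted with limma 3.58.1 in R 4.3.3: 1 mean per group, empirical Bayes, two-sided, adjusted over all of them (Benjamini-Hochberg). The script was tested on simulated data. Members are counted by probe set. Alternatives were the filter, normalization, variance model, samples fitted, a replicate block, a spike-in term, gene means and leaving out each array. Named were all members, pathway genes called or among the 4 with the largest difference, fixed markers and any called, and the 8 nearest profiles; Ifi30, Ctsl and Cd8b1 fall under this rule, and Rfx, NF-Y, CREB factors and H2-Ea were added for their roles. The members, lists and tests were chosen with earlier results of these data known. Listed genes without a probe set of their own were not analysed here.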

Additional observations from a re-analysis of the deposited data

How the results depend on the processing

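Counts of called probe sets moved more than the differences behind them. Under the alternatives, 418 of 420 log2 differences of the members at day 28, shared probe sets included, were positive; the other 2 were those of H2-DMb2 without day 28 replicate 1 (-0.27 against naive, -0.23 against day 7). Leaving out each array gave 0 to 2 called member probe sets at day 7 against naive, 0 to 6 at day 28 against naive and 0 to 9 at day 28 against day 7, and for the pathway list 0 to 7, 0 to 2 and 0 to 3. Members at day 28 against naive numbered 6, and 0 with only the 2 groups compared. Members at day 28 against day 7 numbered 7, and 4 with no filter, 4 with trended and robust variance and 0 with the spike-in term. The pathway count at day 7 against naive was 1, and 0 with no filter, trended and robust variance, quantile normalization, a fit of the 2 groups alone and the spike-in term. At day 28 against naive the pathway count was 4, and 1 with the stricter filter, 1 with trended and robust variance, 0 with only the 2 groups compared and 2 with the spike-in term. At day 28 against day 7 it was 3, and 0 with trended and robust variance and 0 with the spike-in term. With the replicate number as a block, 3 member probe sets were called at day 28 against naive, 3 at day 28 against day 7 and 0 at day 7 against naive, and 0 pathway probe sets in each. The arrays share only a number: correlations of same-numbered arrays' deviations from their group means ran from -0.36 to 0.17. With no filter, 22626 probe sets were tested, and fits of fewer arrays have fewer degrees of freedom. Why the counts moved under each setting was not tested.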
